A study of Mus musculus with 6 samples.

Results

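The genes described here make and police proteins in the endoplasmic reticulum (ER). The set has 39 named genes of the 24786 gene symbols counted in the mouse intestinal organoid libraries, taken by symbol from a fixed list: 11 chaperones and helpers, 8 enzymes of disulfide bond formation, 7 parts of the translocation channel, 10 genes of ER-associated degradation, and 3 genes of stress sensing (Xbp1, Atf6 and Ern1). All 39 symbols were in the counts, and 38 had enough counts to be tested. Derl3, a paralogue of the degradation factors Derl1 and Derl2, had 0 counts in every library, which allows up to 0.0823 to 0.106 CPM per library (CPM are counts per 1000000, scaled between libraries) at the limit of 3 counts. Of the low values, from 1 to 8 counts, 72.6% to 78.7% per library were even numbers, so a count may not be 1 independent read pair and this limit may be too low.

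Wild-type organoids, which are epithelial cultures grown from gut stem cells, were dissociated into single cells over 10 min and kept for 16 h either with 100 µM tyramine (3 libraries) or as controls (3 libraries). The control titles name DMSO and the design text names control medium, and the sources used here do not say which solvent the tyramine cultures held. Nor do they give the gut segment, or whether replicates were separate mice or cultures. The p-values therefore measure no more than the spread among these libraries, which may be technical. Tyramine is an amine formed from tyrosine, among others by gut bacteria.

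Proteins bound for secretion or for a membrane enter the ER through the Sec61 channel. Inside they are folded by chaperones such as BiP (the product of Hspa5), cross-linked by protein disulfide isomerases, and sent back to the cytosol for destruction when they fail. The sensors IRE1 (Ern1), PERK (Eif2ak3) and ATF6 watch the load of unfolded protein, and together they switch on many of these genes, in part through the transcription factor XBP1. In the gut this response is best known from goblet and Paneth cells, whose secretory load is high.

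Promoters of several of these genes carry a sequence called the ER stress element, which ATF6 and XBP1 recognise together with the factor NF-Y. The RefSeq windows on GRCm38.p6, from 250 bases before to 50 after each start site, covered 34 of the 39 genes. Exact matches to the element (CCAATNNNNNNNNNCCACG, either strand) were found in 10 of the 34, 29.4%, against 37 of all 27025 genes with a window, 0.137%. Because the element is known from promoters of several of these genes, a high share among them is no independent finding. Of 82 other ER genes with a window, from the second list described below, 0 had the element. The shorter ER stress element II was found in Dnajb11 and Herpud1, 5.88% of the 34 against 0.0444% of all genes. The XBP1 and ATF6 core TGACGTGG was in 0 of the 34, against 0.714% of all genes. A match describes these letters only, and variants with a mismatch were not searched.

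The windows upstream of the start site are shown in full for 3 genes that differ in their match and their response, with the fixed letters of each match in capitals and the gene's own strand written 5′ to 3′. Hspa5 has 1 match (chr2:34771840-34772089, plus strand), Hsp90b1 has 2, of which the one nearer the start site lies on the opposite strand and so reads CGTGG first and ATTGG last (chr10:86705445-86705694, minus strand), and Ero1l has none (chr14:45318573-45318822, minus strand).
Hspa5: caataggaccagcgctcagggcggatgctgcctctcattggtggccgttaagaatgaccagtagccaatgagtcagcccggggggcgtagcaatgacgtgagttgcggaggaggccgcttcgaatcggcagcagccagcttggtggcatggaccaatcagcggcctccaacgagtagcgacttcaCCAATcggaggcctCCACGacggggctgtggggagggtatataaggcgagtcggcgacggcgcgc
Hsp90b1: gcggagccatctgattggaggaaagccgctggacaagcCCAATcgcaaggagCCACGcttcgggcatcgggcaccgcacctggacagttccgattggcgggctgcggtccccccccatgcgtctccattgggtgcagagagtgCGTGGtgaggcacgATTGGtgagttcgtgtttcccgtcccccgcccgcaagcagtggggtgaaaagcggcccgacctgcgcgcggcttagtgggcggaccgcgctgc
Ero1l: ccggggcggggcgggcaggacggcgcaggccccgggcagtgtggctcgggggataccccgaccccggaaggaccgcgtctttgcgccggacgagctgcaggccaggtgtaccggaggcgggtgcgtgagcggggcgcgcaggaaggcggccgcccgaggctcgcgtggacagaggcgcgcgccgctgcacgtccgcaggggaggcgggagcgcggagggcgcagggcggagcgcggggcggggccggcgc

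For comparison, the matches in the other 8 genes are written along the strand on which the element reads forward, with the fixed letters in capitals, so that the variable middle can be compared. Counted from the start site, all matches of the 10 genes lay between bases -212 and -26.
Calr: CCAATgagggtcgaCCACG
Canx: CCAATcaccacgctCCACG
Dnajc3: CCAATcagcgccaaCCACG
Creld2: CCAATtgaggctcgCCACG
Pdia6: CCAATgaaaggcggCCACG
Ero1lb: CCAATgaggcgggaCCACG
Derl3: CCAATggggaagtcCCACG
Syvn1: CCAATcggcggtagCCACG

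The libraries held between 28316372 and 35035955 counts. Of all 12139 tested genes, 25.8% changed with tyramine, with 12.5% rising and 13.3% falling at a Benjamini-Hochberg adjusted p under 0.05 in edgeR's quasi-likelihood test. Tyramine replicate 3 stood apart: by counts over all genes, the chi-square for each degree of freedom was 93.2 and 98.5 between it and the other tyramine libraries, 52.5 between those, and 26.7 to 34.9 between controls. Markers of gut epithelium were present in every library, with Krt8 at 6091 to 7049 CPM, and 5 of the 7 moved with tyramine. By edgeR, Vil1 (2.69-fold), Krt19 (1.59-fold) and Epcam (1.36-fold) fell, Krt18 (1.59-fold) and Cdh1 (1.31-fold) rose, and Krt8 and Cldn7 were not called. Blood, vessel and connective tissue markers were low: the immune gene Cd79a was at 0 counts throughout, the summed level of a list of 7 fibroblast genes was 0.000961% to 0.00103% of scaled counts in controls and 0.000918% to 0.001% with tyramine, that of 7 immune genes 0.000561% to 0.000943% and 0.00067% to 0.00109%, and that of 4 endothelial genes 3.84e-05% to 0.000119% and 2.09e-05% to 0.00024%.

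Across the ER genes, calls went in both directions and most genes had none. Of the 38 tested genes 3 rose (7.89%), 8 fell (21.1%) and 27 did not pass the test, beside the 12.5% and 13.3% of all tested genes. The median log2 fold change, tyramine minus control, was -0.10, against 0.0041 over all tested genes. Ero1l, Dnajb9 and Sec62 rose, and Hsp90b1, Calr, Manf, Pdia4, Pdia6, P4hb, Os9 and Xbp1 fell. Every called change except that of Ero1l was under 2-fold.

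The tyramine libraries lay all above the controls for 3 of the 38 genes and all below for 11, shares to be read beside 20.9% and 23.6% of all tested genes. The 3 and 8 called genes are within these, and the other 3 below were Dnajb11, Sdf2l1 and Sec63. Leaving out 1 library at a time gave 1 to 3 rising and 6 to 8 falling genes, with 1 rising without control replicate 1 or control replicate 2. Without tyramine replicate 3, 2 rose and 8 fell.

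Some markers of secretory cells were lower in the same comparison. The counts of called markers are to be read beside 12.5% rising and 13.3% falling of all tested genes. The summed level of 7 goblet cell genes was 0.0119% to 0.0144% of scaled counts in controls and 0.0058% to 0.00701% with tyramine, with 4 of 6 tested genes lower by edgeR (Fcgbp, Clca1, Zg16 and Agr2), Muc2 and Tff3 not past the threshold, and the goblet regulator Spdef at or near 0 in every library. For 6 Paneth cell genes the sums were 0.00384% to 0.00764% and 0.00191% to 0.00441%, which overlap. Of the 5 tested Paneth genes Ang4 alone was called, at 0 counts in all tyramine libraries, while Lyz1, Defa17, Defa24 and Itln1 were not past the threshold and Mmp7 was at 0 in 3 of the 6 libraries. For 6 enteroendocrine genes they were 0.107% in each control and 0.0318% to 0.0496% with tyramine, with Chga, Chgb, Gip and Tph1 lower by edgeR and Cck (log2 fold change 0.42) and Neurod1 not past the threshold. Whether these cells, or the shift in epithelial markers, had a part in the changes of the ER genes was not tested, and in bulk RNA fewer cells of a type and less RNA per cell cannot be told apart.

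**Figure D1:**
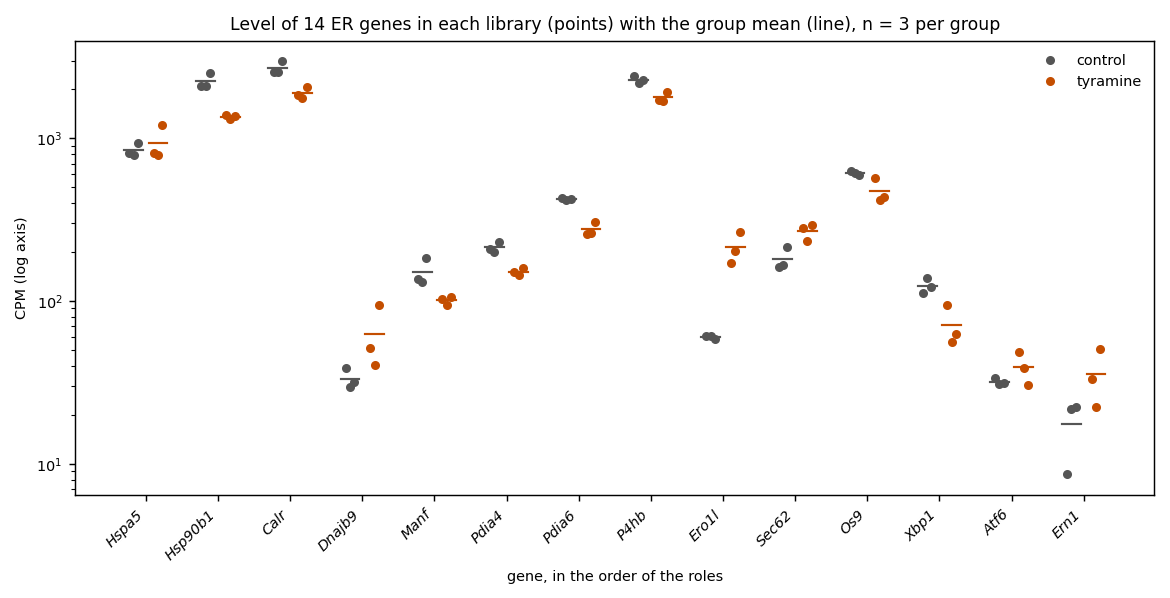
Level in CPM (log axis) of 14 ER genes in each of 3 control (grey) and 3 tyramine (orange) libraries, with points for libraries and lines for group means. The groups are apart for the 11 called genes, most widely for Ero1l, and overlap for Hspa5, Atf6 and Ern1.

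Chaperones of the ER lumen include the most abundant members. Per kilobase of annotated exon, control levels were highest for Calr (934 CPM per kb), P4hb (803) and Hsp90b1 (555), and lowest among tested genes for Ero1lb (0.608). The summed level of all 39 genes was 1.30% to 1.43% of scaled counts in controls and 1.04% to 1.23% with tyramine. Calr, P4hb and Hsp90b1 alone made up 0.685% to 0.775% in controls and 0.477% to 0.537% with tyramine. These 3 genes were picked for their abundance after values were seen. The remaining 36 genes summed to 0.614% to 0.658% in controls and to 0.604%, 0.56% and 0.691% in tyramine replicates 1 to 3. Their groups overlap through tyramine replicate 3 alone, which lies above every control, while the other tyramine libraries lie below every control. The 36 include the called falls of Pdia6, Pdia4, Manf, Os9 and Xbp1 and the called rises of Ero1l, Dnajb9 and Sec62.

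Hsp90b1, which encodes GRP94, the HSP90 chaperone of the ER (chromosome 10, 86690209 to 86705509, minus strand), stood at 2104, 2098 and 2505 CPM in control replicates 1 to 3 and at 1393, 1308 and 1374 CPM with tyramine. All tyramine libraries were below all controls, by 1.65-fold on average (log2 fold change -0.72, SE 0.09, n = 3 per group; edgeR adjusted p = 0.000347). Calr, calreticulin, a calcium-binding lectin chaperone of glycoproteins (chromosome 8, 84841850 to 84846934, minus strand), was at 2547, 2550.2 and 2969.6 CPM in controls and 1854, 1762 and 2075 CPM with tyramine. Its groups were also apart, 1.42-fold lower with tyramine (log2 fold change -0.50, SE 0.09; edgeR adjusted p = 0.0035). Calnexin, the membrane-bound relative of calreticulin encoded by Canx, gave 929.7, 849 and 944 CPM in controls and 931, 892 and 1099 CPM with tyramine. These ranges overlap, and the 95% interval of its log2 fold change was -0.12 to 0.32. So the paired lectin chaperones had different outcomes in the test, although the difference between them was not tested.

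Hspa5, the chaperone BiP and the usual readout of ER stress (chromosome 2, 34771970 to 34777547, plus strand), was at 817, 793 and 931 CPM in controls and 815, 794 and 1208 CPM with tyramine. Only tyramine replicate 3 was above every control, and the log2 fold change was 0.15 (SE 0.15, 95% interval -0.20 to 0.49; edgeR adjusted p = 0.543); without that library it was -0.07. Hyou1, the nucleotide exchange factor for BiP also called GRP170, was at 154 ± 11.5 CPM in controls and 156 ± 12 CPM with tyramine (SD, n = 3), with an interval of -0.24 to 0.27. Creld2, an ER stress-induced secreted protein, had an interval of -0.50 to 0.26.

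Among the J-domain helpers of BiP, Dnajb9 (ERdj4, which restrains IRE1) was the only one past the threshold. It stood at 38.8, 29.4 and 31.8 CPM in controls and 51.8, 40.4 and 94.9 CPM with tyramine. The lowest tyramine library lay just above the highest control, and replicate 3 was far above the others. The change was 1.87-fold (log2 change of 0.90, SE 0.30; edgeR adjusted p = 0.0489), fell short of the threshold with any library but tyramine replicate 2 left out, and was 0.47 without tyramine replicate 3 (adjusted p = 0.127). It was also not called with libraries scaled by their totals alone (0.81, edgeR adjusted p = 0.0721). Dnajb11 (ERdj3) had 266, 262 and 271 CPM in controls and 226, 232 and 243 CPM with tyramine, groups that do not overlap, with an edgeR adjusted p = 0.165. Dnajc3 (P58IPK, an inhibitor of PERK) had a log2 fold change of 0.17 with an interval of -0.13 to 0.48.

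Manf, a secreted survival factor that also binds BiP, gave 137, 132 and 185 CPM in controls and 103, 93.9 and 106 CPM with tyramine. It fell 1.50-fold with no overlap (change on the log2 scale -0.58, SE 0.15; edgeR adjusted p = 0.0174), but was not past the threshold without control replicate 3 (-0.42, adjusted p = 0.0729) or tyramine replicate 2 (-0.53, adjusted p = 0.0588). Sdf2l1, a partner of ERdj3, gave 16.8, 16.3 and 23.4 CPM in controls and 13.6, 10.9 and 6.82 CPM with tyramine. All its tyramine values were lower, and the log2 fold change of -0.85 (SE 0.35) was not past the threshold (edgeR adjusted p = 0.102). In total 1 of the 11 chaperone genes rose (9.09%) and 3 fell (27.3%), beside 12.5% and 13.3% of all tested genes. That left 7 not past the threshold, and the median log2 fold change was -0.12.

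**Figure D2:**
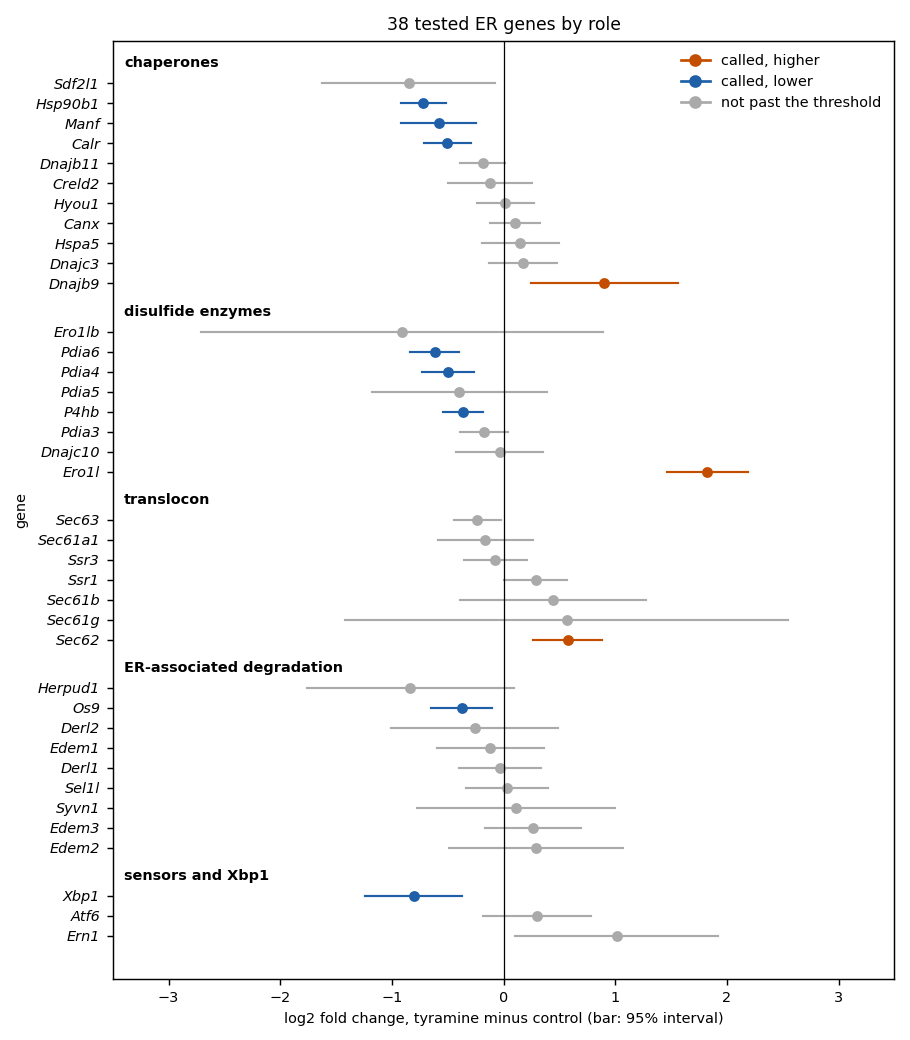
Log2 fold change (tyramine minus control) of the 38 tested ER genes, grouped by role, with 95% intervals as bars. Most intervals span 0, Ero1l stands at 1.83, and the called falls lie between -0.80 and -0.37.

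The disulfide enzymes held the largest change of the set, and it ran against the direction of the isomerases. Ero1l encodes ERO1-alpha, the oxidase that recharges protein disulfide isomerase and that is also known as a hypoxia-induced gene (chromosome 14, 45283087 to 45318771, minus strand). Its level was 61.4, 61.1 and 58.2 CPM in controls and 172, 202 and 266 CPM with tyramine. The controls lay close together and all tyramine libraries far above them, a rise of 3.54-fold (log2 change of 1.83, SE 0.16; edgeR adjusted p = 3.9e-05). Its call held with each library left out, at 1.64 to 1.96. Ero1lb, the paralogue ERO1-beta known from insulin-producing cells, was scarce at 3.42, 4.61 and 4.11 CPM in controls and 4.20, 0.975 and 1.29 CPM with tyramine, with an interval of -2.71 to 0.89 on the log2 scale.

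By contrast 3 isomerase genes fell. P4hb, protein disulfide isomerase itself (chromosome 11, 120560298 to 120573253, minus strand), went from 2414, 2202 and 2274 CPM to 1725, 1704 and 1917 CPM, 1.29-fold lower (log2 change of -0.37, SE 0.08; edgeR adjusted p = 0.00835). Pdia6, an isomerase that damps IRE1 signalling (chromosome 12, 17266545 to 17284770, plus strand), went from 432, 417 and 424 CPM to 259.6, 264 and 308 CPM, 1.53-fold lower (log2 change of -0.62, SE 0.10; edgeR adjusted p = 0.00147). Pdia4 (ERp72; chromosome 6, 47796141 to 47813430, minus strand) went from 208, 201 and 231 CPM to 150.4, 145 and 159 CPM, 1.41-fold lower (log2 change of -0.50, SE 0.11; edgeR adjusted p = 0.00687). In each of these 3 genes every tyramine library was below every control, and the call held with each library left out.

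Pdia3 (ERp57), which works with calnexin and calreticulin on glycoproteins, was at 772, 671 and 713 CPM in controls and 615, 592 and 698 CPM with tyramine. The groups overlapped only through tyramine replicate 3, and the interval was -0.39 to 0.04 (edgeR adjusted p = 0.221). Pdia5 gave an interval of -1.18 to 0.39, and Dnajc10 (ERdj5, a disulfide reductase that prepares proteins for degradation) one of -0.42 to 0.35. Of the 8 disulfide genes 1 rose (12.5%) and 3 fell (37.5%), beside 12.5% and 13.3% of all tested genes. That left 4 not past the threshold, and the median log2 fold change was -0.38. The same 1 and 3 calls were counted in every other setting and with each library left out.

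At the translocation channel, Sec62 was the only gene past the threshold. It encodes a membrane protein that helps short and post-translationally inserted precursors into the channel and also acts in the turnover of ER membranes (chromosome 3, 30792875 to 30821263, plus strand). Levels were 163, 166 and 214 CPM in controls and 281, 234 and 291 CPM with tyramine, so that the groups did not overlap. The rise was by 1.49 times (log2 fold change 0.57, SE 0.14; edgeR adjusted p = 0.0123), and was not past the threshold without control replicate 1 (0.50, adjusted p = 0.0702) or control replicate 2 (0.51, adjusted p = 0.0703). Its partner Sec63, a J-domain protein that brings BiP to the channel, gave 508, 479 and 539.7 CPM in controls and 465, 403 and 429 CPM with tyramine. Those values are all lower with tyramine, yet its log2 fold change of -0.23 (SE 0.09) had an edgeR adjusted p = 0.0986.

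For Sec61a1, the pore subunit, levels were 105, 84.5 and 79.2 CPM in controls and 60.9, 81.2 and 97.6 CPM with tyramine, with an interval of -0.59 to 0.26. The small subunits Sec61b and Sec61g had 12.7 ± 2.18 and 3.52 ± 2.23 CPM in controls (SD, n = 3), and their intervals, -0.39 to 1.27 and -1.42 to 2.55, leave room for changes in either direction. Ssr1 and Ssr3, subunits of the translocon-associated protein complex, had log2 fold changes of 0.29 (interval 0.01 to 0.57, edgeR adjusted p = 0.129) and -0.07 (interval -0.36 to 0.21). Thus 1 of the 7 rose (14.3%), 0 fell and 6 did not pass the test, beside 12.5% rising and 13.3% falling of all tested genes. The median log2 fold change was 0.29, and 0.0012 without tyramine replicate 1. Sec63 was called lower by edgeR when libraries were scaled by their totals alone (-0.32, adjusted p = 0.0251).

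Among the 9 tested genes of ER-associated degradation, which draws failed proteins back to the cytosol, Os9 alone was called. Os9, a lectin that hands misfolded glycoproteins to the degradation ligase (chromosome 10, 127095650 to 127121131, minus strand), was at 632, 615 and 596 CPM in controls and 571, 417 and 434 CPM with tyramine. It fell 1.30-fold (change on the log2 scale -0.37, SE 0.12; edgeR adjusted p = 0.0476) with no overlap, but leaving out any library other than tyramine replicate 1 ended the call, with a change of -0.29 (adjusted p = 0.153) without tyramine replicate 2. Herpud1, a stress-induced organiser of the degradation complex, was at 22.1, 16.8 and 23.3 CPM in controls and 5.47, 11.1 and 18.3 CPM with tyramine. These ranges overlap through tyramine replicate 3, and its log2 fold change of -0.84 (SE 0.42; edgeR adjusted p = 0.179) was -1.32 and past the threshold without that library (adjusted p = 0.0241).

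The core ligase Syvn1 (HRD1) and its partner Sel1l had log2 fold changes of 0.11 (interval -0.77 to 0.996) and 0.03 (interval -0.34 to 0.40). Sel1l was at 103, 102 and 105 CPM in controls, against 89.8, 92.9 and 134 CPM with tyramine, a spread in the tyramine group that lies on either side of the controls. The mannose-trimming genes Edem1, Edem2 and Edem3 had log2 fold changes of -0.12, 0.29 and 0.26, and the channel factors Derl1 and Derl2 had -0.03 and -0.26. Of the 9 tested degradation genes 0 rose, 1 fell (11.1%) and 8 did not pass the test, and the median log2 fold change was -0.03. Over all tested genes 12.5% rose and 13.3% fell, so the share that fell is near that of all genes. For the 7 genes from Syvn1 to Derl2, edgeR adjusted p-values ran from 0.368 for Edem3 to 0.921 for Sel1l, and all their intervals span 0.

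Stress sensing genes differed from each other. Xbp1, the transcription factor whose messenger RNA is spliced by IRE1 (chromosome 11, 5520659 to 5525893, plus strand), was at 112, 138 and 121 CPM in controls and 94, 56.4 and 62.4 CPM with tyramine. It fell 1.75-fold with no overlap (log2 fold change -0.80, SE 0.19; edgeR adjusted p = 0.013), and was at -0.72 and not past the threshold without control replicate 2 (adjusted p = 0.0659). Counts per gene do not separate its spliced and unspliced forms. Ern1, which encodes IRE1-alpha itself, was at 8.63, 21.7 and 22.2 CPM in controls and 33.1, 22.2 and 50.8 CPM with tyramine. The lowest tyramine value lay just under the highest control, and the log2 fold change of 1.01 (SE 0.41, interval 0.11 to 1.92) was not past the threshold in edgeR (adjusted p = 0.0982) but was in DESeq2 (adjusted p = 0.045). Atf6, the sensor cleaved in the Golgi, was at 33.6, 30.9 and 31.3 CPM in controls and 48.6, 39 and 30.6 CPM with tyramine, overlapping groups with an interval of -0.18 to 0.79.

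Set against the promoter matches above, genes with the full ER stress element had nearly the same median change as genes without it. Of the 9 tested genes with a match 0 rose, 3 fell (Hsp90b1, Calr and Pdia6) and 6 did not pass the test, with log2 fold changes from -0.91 to 0.17 and a median of -0.12. Of the 24 tested genes with a window and no match 3 rose, 4 fell and 17 did not pass the test, from -0.85 to 1.83 with a median of -0.10. Among tested genes of any kind with the same symbol in RefSeq, 17 had the element in a window. Of these 5.88% rose and 17.6% fell, beside 12.5% and 13.3% of all tested genes. The falls are the same 3 genes as above, so no gene outside the set adds to them. Ero1lb, which RefSeq lists as Ero1b, is not among the 17. ER stress element II was in a window of 8 tested genes, among them Dnajb11 and Herpud1 from the 24 above. Of these 37.5% rose and 0% fell. The core TGACGTGG was in a window of 97 tested genes, of which 19.6% rose and 10.3% fell. Of the other ER genes described below it was in Vcp and Ube2j1, which rose, and in Txndc5 and Txndc11, which were not called. All these shares are descriptions with no test, and small numbers of genes limit those of the ER stress elements.

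**Figure D3:**
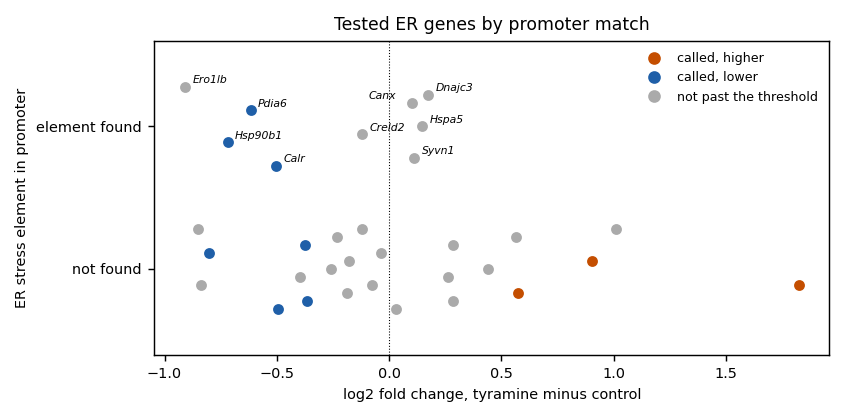
Log2 fold change (tyramine minus control) of the 33 tested ER genes with a promoter window, by whether the window holds an exact ER stress element, with genes as points. The 9 genes with a match lie between -0.91 and 0.17 with a median of -0.12. The 24 without one lie between -0.85 and 1.83 with a median of -0.10. The 3 called rises are among the 24, too few to set the groups apart, and no test was run.

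The rest of the ER machinery was read from a second list of genes that are not in the set of 39. Of its 108 genes present in the counts 104 were tested: 19 rose (18.3%) and 8 fell (7.69%), beside 12.5% and 13.3% of all tested genes, with a median log2 fold change of 0.05. Of the 19 rises, 7 were among 19 further genes of ER-associated degradation, where 36.8% rose and 10.5% fell. Another 5 were among 15 further stress sensors and effectors, where 33.3% rose and 6.67% fell. The rises include Srp54a, Srp54b and Srp54c, near-identical copies that are counted here as separate genes. Each library left out in turn gave 10 to 18 rising and 3 to 12 falling genes. Without control replicate 1, 12 rose and 3 fell. Without control replicate 2, 10 rose and 4 fell, 4 fell without control replicate 3, and 12 fell without tyramine replicate 3.

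In that degradation subgroup, Vcp, the p97 motor that pulls proteins out of the membrane, was at 449.7, 395 and 396 CPM in controls and 638, 712 and 848 CPM with tyramine. All tyramine libraries were higher (log2 fold change 0.83, SE 0.12; edgeR adjusted p = 0.000718). Ubxn4, a membrane adaptor of p97, went from 284, 313 and 358 CPM to 532, 583 and 719 CPM (log2 fold change 0.94; edgeR adjusted p = 0.000675). The other 5 rises were Ube2j1, Faf2, Ufd1, Nploc4 and Selenos, whose fold changes were 0.35 to 0.73 on the log2 scale; Ufd1 and Nploc4 encode the cofactor pair of p97. Of these, Ube2j1 alone kept its call with each library left out. Selenos (edgeR adjusted p = 0.0464) lost it without any library but tyramine replicate 2, Ufd1 (0.0417) without control replicate 1 or 2 or tyramine replicate 1 or 2, Nploc4 without control replicate 2 or 3 or tyramine replicate 1, and Faf2 without control replicate 1 or 2. Selenos, Ufd1 and Nploc4 were also not called with library totals alone. The falls were Erlin1 (log2 fold change -1.36, edgeR adjusted p = 0.0205, but 0.0512 to 0.0861 without any 1 control) and Erlin2 (-0.51, edgeR adjusted p = 0.00792), which form a membrane complex in cholesterol-rich parts of the ER. The other 10 of the 19 were not past the threshold.

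The largest rise of the second list was among the further stress sensors and effectors. Ppp1r15a (GADD34, which reverses the translation block set by PERK and related kinases) went from 48.3, 36.1 and 28.6 CPM to 289, 371 and 724 CPM, a log2 fold change of 3.62 (SE 0.35; edgeR adjusted p = 0.000125). Ddit3 (CHOP) went from 51.1, 46.7 and 63.2 CPM to 112, 129 and 233 CPM (log2 fold change 1.56, SE 0.26; edgeR adjusted p = 0.0018), and Atf4 rose by 0.49 on the log2 scale (edgeR adjusted p = 0.0155, and 0.0756 and 0.0716 without control replicates 2 and 3). In each of these, tyramine replicate 3 was the highest of all libraries; without it the log2 fold change of Ppp1r15a was 3.13 and that of Ddit3 1.17. Atf6b and Ppp1r15b also rose, by 0.94 and 0.45 on the log2 scale. Neither kept its call without control replicate 1 or 2 or tyramine replicate 1, nor did Atf6b without control replicate 3 or Ppp1r15b without tyramine replicate 2, and Ppp1r15b was not called with library totals alone (adjusted p = 0.0504). Eif2ak3, the PERK gene itself, was at 48.6, 41.1 and 42.6 CPM in controls and 21, 30.5 and 45.2 CPM with tyramine, and its log2 fold change of -0.45 was not past the threshold (edgeR adjusted p = 0.266) but was without tyramine replicate 3 (-0.77, adjusted p = 0.0273). Creb3l3, a membrane-bound relative of ATF6 found in liver and enterocytes, went from 197, 171 and 165 CPM to 77.2, 74.8 and 54.2 CPM, and fell 2.58-fold (edgeR adjusted p = 0.000201). Ern2, the IRE1 isoform of mucous cells, had at most 1.48 CPM in any library. Trib3, from the same subgroup, had 1.74, 1.56 and 3.89 CPM in controls and 9.36, 3.05 and 4.35 CPM with tyramine. Its groups overlap, and the log2 fold change of 1.22 missed the threshold (edgeR adjusted p = 0.26). Whether PERK or a related kinase had a part in the rises of Ppp1r15a, Ddit3 and Atf4 was not tested.

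**Figure D4:**
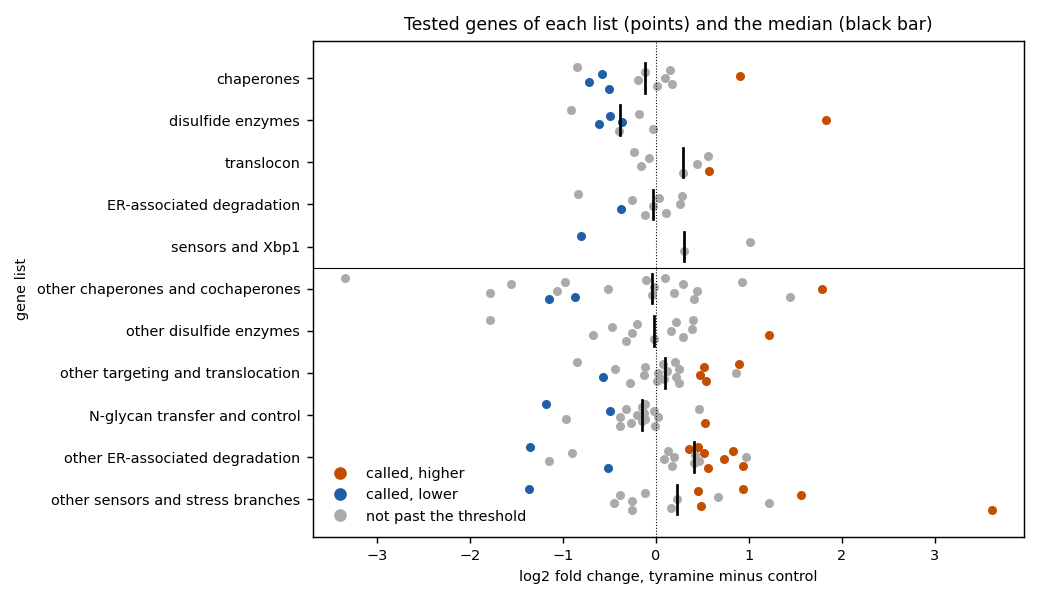
Log2 fold change (tyramine minus control) of each tested gene in the 5 roles of the set (above the line) and in 6 lists of other ER genes (below it), with black bars at the medians. The medians run from -0.38 for disulfide enzymes to 0.41 for the further degradation genes, and the point farthest to the right is Ppp1r15a at 3.62.

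Targeting to the ER and glycan handling gave smaller numbers of calls. Srp14, an RNA-binding part of the signal recognition particle, went from 119, 124 and 121 CPM to 255, 216 and 204 CPM (log2 fold change 0.89; edgeR adjusted p = 0.00044), whereas Srp72 of the same particle fell by 0.57 on the log2 scale (edgeR adjusted p = 0.0167, and 0.0504 to 0.0632 without any 1 control or tyramine replicate 2). Srp54a, Srp54b and Srp54c also rose, by 0.48, 0.52 and 0.54, but they are near-identical copies and how reads were shared out among them is uncertain. In all 4 of 20 further targeting and translocation genes rose (20%) and 1 fell (5%), beside 12.5% and 13.3% of all tested genes.

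Of 18 genes of N-glycan transfer and quality control 1 rose (5.56%) and 2 fell (11.1%), beside 12.5% and 13.3% of all tested genes. Mlec, malectin, which binds newly attached glycans, went from 1044, 1005 and 1081 CPM to 516, 522 and 341 CPM (log2 fold change -1.18, SE 0.15; edgeR adjusted p = 0.000369). Rpn2, a subunit of the glycan transferase, fell by 0.49 on the log2 scale (edgeR adjusted p = 0.0382, and 0.168 without control replicate 1), and Lman1, a cargo receptor for export from the ER, rose by 0.53 (edgeR adjusted p = 0.0108). Leaving out any library other than control replicate 3 ended the call of Rpn2, as did limma-voom with group weights (adjusted p = 0.0525), and Lman1 missed the threshold without control replicate 1 (adjusted p = 0.0519) or control replicate 2 (adjusted p = 0.0588).

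Further chaperones and disulfide enzymes were mostly not past the threshold, 16 of 19 and 12 of 13, as were 9012 of all 12139 tested genes. Of the further chaperones 5.26% rose and 10.5% fell, and of the further disulfide enzymes 7.69% and 0%, beside 12.5% and 13.3% of all tested genes. Qsox1, a secretory-pathway sulfhydryl oxidase, rose from 31.7, 31.1 and 23.3 CPM to 71.3, 61.1 and 68.4 CPM (log2 fold change 1.22, SE 0.19, edgeR adjusted p = 0.0011). Cdnf, the paralogue of Manf, rose from 2.63 ± 0.394 to 9.06 ± 2.70 CPM (SD, n = 3; log2 fold change 1.78, edgeR adjusted p = 0.0256), opposite in direction to Manf, although it missed the threshold without any 1 control (adjusted p = 0.0743 to 0.0957) or tyramine replicate 3 (adjusted p = 0.0559). Cnpy2 fell by 0.87 on the log2 scale (edgeR adjusted p = 0.0177, and 0.0716 and 0.079 without control replicates 1 and 3), and Fkbp2, a prolyl isomerase of the ER, lay at the threshold (log2 fold change -1.15, edgeR adjusted p = 0.05, just under it before rounding) and missed it without any 1 control (adjusted p = 0.115 to 0.148) or tyramine replicate 2 (adjusted p = 0.116). It was also not called with no filter on low counts (edgeR adjusted p = 0.0785), a minimum count of 50 (0.0544) or robust estimation off (0.0541).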

How the data were processed

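RNA was measured in 6 libraries. Per the labels' protocols, a stranded mRNA kit tagged cDNA with molecular identifiers of 8 bases and reads were paired, of 150 bases each; the submitters' processing notes name STAR 2.5.3a and mm10. The deposited values are raw counts per gene symbol; the sources used here do not give the counter, its annotation, strand setting, filters or use of identifiers, so antisense, overlapping and near-identical genes are uncertain, and limits from counts cover counting error only. Groups and replicate numbers come from the titles.

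Genes were filtered with filterByExpr (minimum count 10, minimum total 15), scaled by TMM factors of 0.962 to 1.04 and tested over all 12139 by the quasi-likelihood F-test of edgeR 4.0.16 in R 4.3.3 (robust, with group as the only term), calling Benjamini-Hochberg adjusted p under 0.05. CPM are counts per 1000000 of library size times TMM factor; shares of scaled counts use the same total. SE is the log2 fold change over the square root of F, and intervals are 95%. Lengths and gene positions are from GENCODE M21 (GRCm38); promoter sequences are RefSeq's on GRCm38.p6. The fit was also run on simulated counts with equal scatter in both groups. In the real libraries the median SD of log2 CPM was 0.229 in controls and 0.409 with tyramine. That run therefore does not check the calls under such unequal scatter.

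The members, roles, lists and motifs were chosen with earlier results of these data known, so no list was tested as a set. Every member is named; values per library are given for Hspa5, Xbp1, Atf6, Ern1 and up to 4 called genes per role and direction by size of change, and for some others after their values were seen. Of the second list, named genes are up to 2 called per subgroup and direction, with Atf4, Ddit3, Eif2ak3 and Ern2. Ube2j1, Faf2, Ufd1, Nploc4, Selenos, Srp54a, Srp54b, Atf6b, Ppp1r15b and Trib3 were named after their values were seen. Txndc5 and Txndc11 were named for a promoter match. Alternatives were other scalings, filters, DESeq2 1.42.0, limma-voom (limma 3.58.1) with and without group weights, robust estimation off, a replicate block, and leaving out each library in turn.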

Additional observations from a re-analysis of the deposited data

How the results depend on the processing

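Of the called ER genes, Hsp90b1, Calr, Pdia4, Pdia6, P4hb and Ero1l kept their call and direction in all 9 other settings and with each of the 6 libraries left out. The call of Dnajb9 was lost with DESeq2-type size factors (RLE), library totals alone, limma-voom, robust estimation off and the replicate block, so that in each of these 0 chaperones rose. With library totals alone, 1 translocon gene (Sec63) fell, the chaperone median was -0.21, and Hyou1 and Sel1l reversed, to -0.0746 and -0.0574; that scaling moved the median of all genes by -0.0858. Robust estimation off left 0 falling degradation genes, DESeq2 called 1 sensor gene (Ern1) as rising, and limma-voom called 13 of the other ER genes as falling. The cause of these changes was not tested.

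Leaving out 1 library at a time gave 1977 to 3307 called genes in all, 934 to 1510 rising and 1035 to 1797 falling; the lowest counts came without a control. The ER genes had 1 to 3 rising, and the other ER genes 10 to 18 rising and 3 to 12 falling. Chaperones had 0 to 1 rising, the translocon 0 to 1 rising, degradation genes 0 to 1 falling and sensors 0 to 1 falling. Median log2 fold changes were -0.16 to -0.0079 for chaperones, -0.475 to -0.26 for disulfide enzymes, 0.0012 to 0.34 for the translocon and -0.19 to 0.0416 for degradation genes. Single genes that changed sign, none of them called in the main test, were Hspa5 (-0.0728 to 0.26), Hyou1 (-0.0516 to 0.0666), Dnajc10 (-0.19 to 0.0519), Sec61a1 (-0.33 to 0.0012), Sec61g (-0.86 to 1.06), Ssr3 (-0.19 to 0.0101), Edem1 (-0.21 to 0.0416), Derl1 (-0.17 to 0.0921), Sel1l (-0.18 to 0.14), Syvn1 (-0.19 to 0.39) and Ern2 (-7.07 to 0.48).

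With the replicate block, 2 ER genes rose and 8 fell, and 2594 genes were called in all; Dnajb9 (0.81, edgeR adjusted p = 0.0664) and, of the other ER genes named, Cdnf (1.75, adjusted p = 0.0807), Selenos (0.35, 0.0664), Ufd1 (0.54, 0.0643), Atf6b (0.94, 0.0709) and Ppp1r15b (0.45, 0.0533) lost their calls, so that 14 of those genes rose. Deviations of same-numbered libraries from their group means correlated at -0.0188 to 0.0109, so no deviation shared by number was seen. That cannot tell whether the samples were paired, which the sources used here do not state. With 3 libraries a group and low counts, the intervals of Sec61g (-1.42 to 2.55) and Ero1lb (-2.71 to 0.89) are the widest of the set on the log2 scale.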
